A study of Mus musculus with 15 samples.

Results

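The genes described here build, align and maintain the sarcomere, the contractile unit of striated muscle, and its Z-disc, the lattice that anchors the thin filaments of neighbouring sarcomeres. They are a list of 49 mouse genes chosen by name, and every splicing event of those genes in the deposited table was taken. A total of 30 genes had 101 events among the 39123 events of the whole table, and the other 19, among them Acta1, Des, Tcap and Mylpf, had no event analysed here. No value was missing for 99 of the 101 events, and those 99 entered the tests. The events comprise 30 alternative last exons (ALE), 29 skipped exons (SE), 23 alternative first exons (AFE), 6 alternative 5′ splice sites (A5SS), 5 alternative 3′ splice sites (A3SS), 4 retained introns (RI), 2 pairs of mutually exclusive exons (MXE) and 2 tandem untranslated regions. Obsl1 and Palld have 15 events each, and events of the same gene share transcripts, so they are not separate observations.

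The libraries come from skeletal muscle of a mouse model of myotonic dystrophy type 1, in which a transcript with an expanded CUG repeat is switched on by doxycycline (dox). At each of 6, 12 and 20 weeks of age, 2 induced libraries carried the TREDT960I transgene (homozygous), which holds the repeat, together with MDAFrtTA, which responds to dox, and had received dox from postnatal day 1. The 2 no-dox libraries of each week carried both transgenes without dox, and the 1 dox control had TREDT960I alone with dox. These 9 libraries are pooled below as controls against the 6 induced libraries, and all groups carry the homozygous repeat transgene. Gastrocnemius is named for 10 libraries and quadriceps for 5, namely week 6 induced 2, week 12 no dox 2, week 20 no dox 1 and 2, and week 20 induced 2. Week 6 no dox 2 is the only male library. Each value is a percent spliced in (PSI), the share of transcripts with one of the forms of an event, on a scale of 0 to 1. PSI holds no transcript abundance, so neither the muscle identity of the samples nor other cell types in them could be checked by marker levels. Any pair of libraries correlated in PSI across events with Pearson's r of 0.943 to 0.968. The depth behind the fractions is unknown.

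As background, thick filaments of myosin are held in register at the M-band by myomesins and obscurin-family proteins, and thin filaments of actin are capped at their ends and anchored at the Z-disc by alpha-actinin and its partners. Muscle builds many of these proteins in several forms, through alternative promoters and alternative exons that change between development and maturity and between fibre types. In myotonic dystrophy, the CUG repeat binds muscleblind-like splicing factors, and a set of exons in muscle transcripts is known to return toward the pattern of immature muscle.

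The transcript start of Synpo2l is shown in sequence because its first-exon event had the largest difference between induced and control libraries among the member events with an unadjusted p under 0.05. Synpo2l encodes synaptopodin 2-like, an actin-binding Z-disc protein. RefSeq lists 2 promoters for the gene in the mouse build GRCm38.p6, both on the minus strand of chromosome 14, at chr14:20668305-20668604 and chr14:20664525-20664824. Each window runs from 250 bases before the start of transcription to 50 bases after it, and the windows begin 3780 bases apart. Capitals mark matches to the E-box CANNTG, the motif bound by myogenic basic helix-loop-helix factors.

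Synpo2l promoter 1: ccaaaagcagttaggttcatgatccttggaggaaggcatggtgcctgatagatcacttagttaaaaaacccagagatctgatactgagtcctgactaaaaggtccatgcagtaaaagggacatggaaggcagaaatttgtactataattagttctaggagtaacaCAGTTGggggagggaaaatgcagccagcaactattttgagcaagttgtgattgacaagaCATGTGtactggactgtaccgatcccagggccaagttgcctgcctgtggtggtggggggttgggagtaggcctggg
Synpo2l promoter 2: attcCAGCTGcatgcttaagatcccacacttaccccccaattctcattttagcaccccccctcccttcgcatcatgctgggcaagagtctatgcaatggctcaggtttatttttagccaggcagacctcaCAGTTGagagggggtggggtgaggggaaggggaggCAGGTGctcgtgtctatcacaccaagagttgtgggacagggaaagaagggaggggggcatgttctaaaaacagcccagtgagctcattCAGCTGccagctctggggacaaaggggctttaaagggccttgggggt

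Promoter 1 holds 2 matches to CANNTG and promoter 2 holds 4, and 72.3% of 32851 RefSeq promoters of this length hold at least 1. Neither window holds TATAAA, found in 13.6% of promoters, or CATTCC, found in 14.7%, on either strand. Which promoter belongs to which transcript of the event is not given in the sources used here, and a match of letters is not a binding site.

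The events of these genes ran from constant to widely variable. Of the 99 tested, 23 had a mean PSI of at most 0.05 and 18 of at least 0.95. The other 58 (58.6%) had a mean in between, against 70.0% of all 31267 events tested. Because depth is unknown, such a mean does not show that both forms were present. A total of 30 events (30.3%) moved over no more than 0.02 across the 15 libraries, against 13.6% of all events, and 16 had the same value in every library. Among them, Myh4, Tmod4, Tnni2 and Actn2, which encode the IIb myosin heavy chain, a tropomodulin, fast troponin I and alpha-actinin-2, had 1 event each at 0.00 in all libraries. At the other end, 36 events (36.4%) spanned at least 0.20, against 41.7% of all events. Gene by gene, the widest ranges of tested events were in Obsl1, Palld and Mybpc1. PSI ran from 0.12 to 0.71 in last exons of Obsl1. It ran from 0.39 to 0.92 at a 5′ splice site of Palld and from 0.45 to 0.89 in a skipped exon of Mybpc1.

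**Figure D1:**
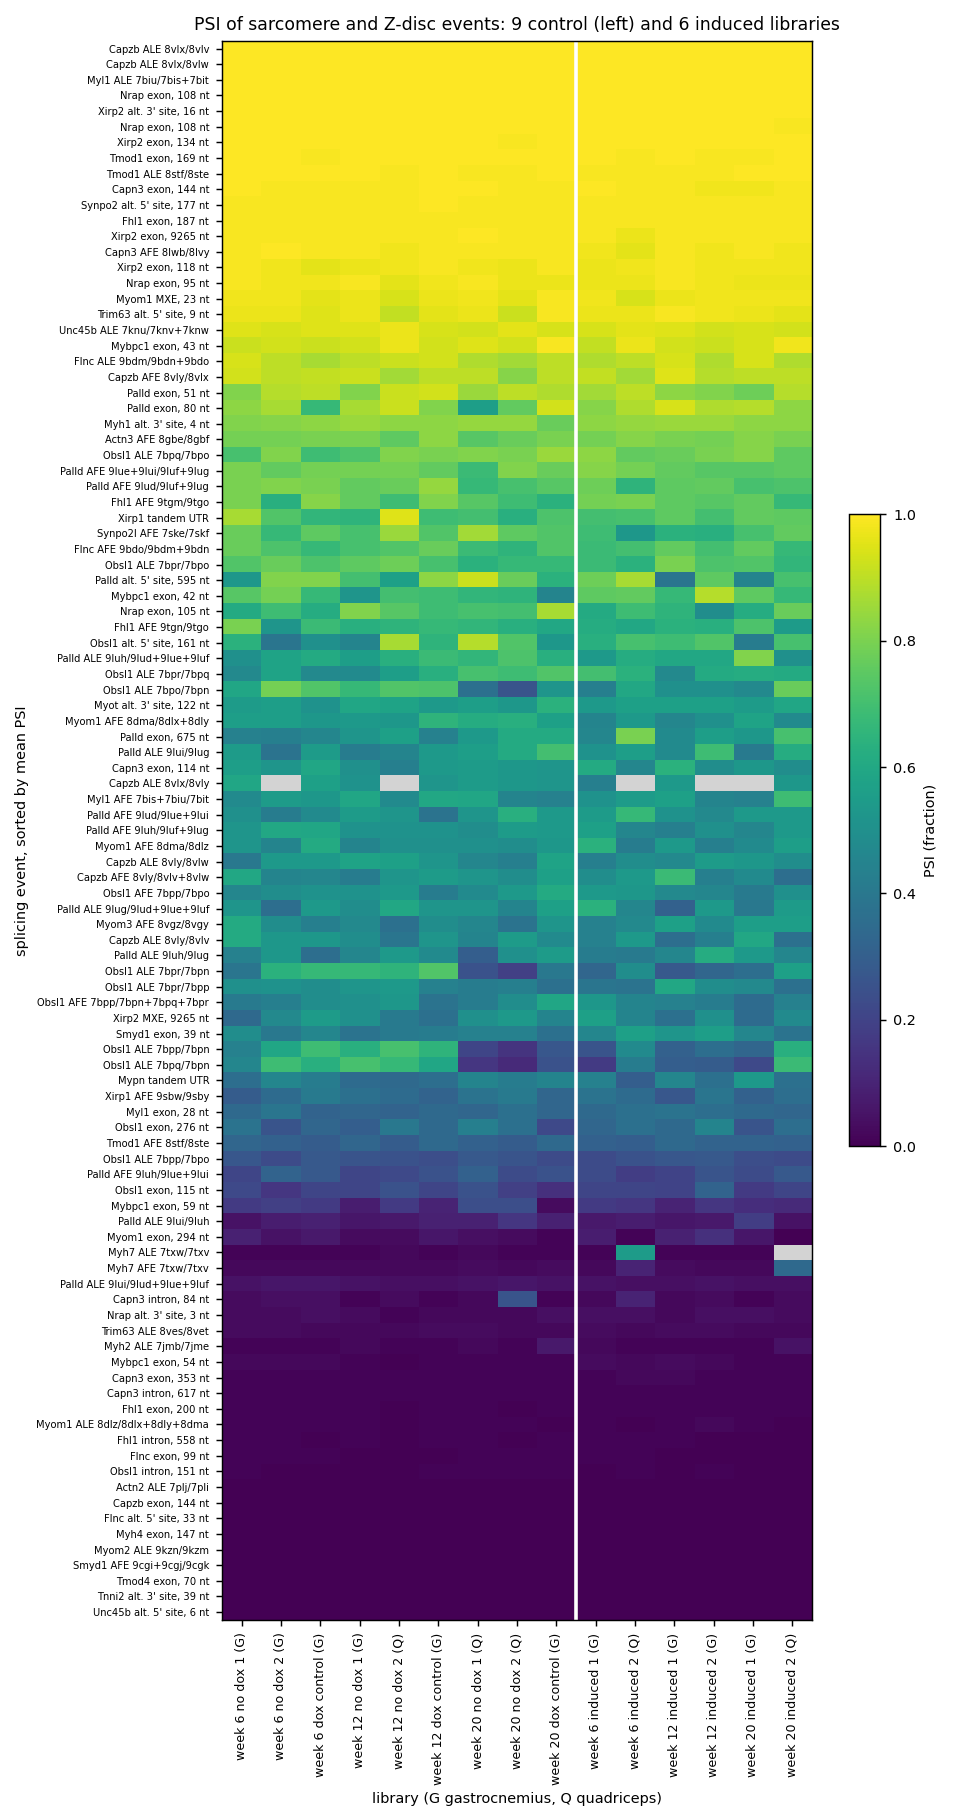
PSI (colour, 0 to 1) of all 101 member events, 1 row per event sorted by mean PSI and 1 column per library, the 9 control libraries left of the white line and the 6 induced libraries right of it, with missing values in grey and UCSC transcript names without their leading uc00. The upper and lower rows are even across libraries, and the Obsl1 last-exon rows that share uc007bpn vary most, with uc007bpq against uc007bpn at 0.12 in week 20 no dox 2 and 0.71 in week 12 no dox 1.

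The comparison of induced with control libraries asks whether expression of the CUG repeat altered these transcripts. It was fitted with limma over the whole table, as the mean difference over the 3 weeks with a term for muscle, and the call rule asked for a Benjamini-Hochberg adjusted p under 0.05 over all events together with a PSI difference of 0.1 or more. None of the 99 member events was called, where 2 of 31267 events were called in all (0.0064%). An unadjusted p under 0.05 was reached by 5 member events (5.05%), against 6.26% of all events, and the lowest adjusted p of a member from limma was 0.657. An exact permutation test of each event over the libraries called 0 of the 99, with 4 at an unadjusted p under 0.05. That test exchanged libraries freely across weeks and muscles, so unlike limma it took no account of either. The 5 events from limma lie in Capn3, Mybpc1, Synpo2l, Myom1 and Smyd1. No member event separated all induced from all control libraries, whereas 0.125% of all events did so, and 0.109% with means that were also 0.05 or more apart. The median absolute difference of the members was 0.0083 and the largest 0.129. Of the 58 events with a mean PSI between 0.05 and 0.95, 27 were higher and 31 lower in induced muscle. For 31 of these 58, the 95% interval of the difference lay wholly within 0.1 of 0. For the other 27 it reached past 0.1, so a difference of that size was not excluded with these libraries. Among those 27, the intervals of the first exons of Synpo2l and Myom1 and of the 39-base exon of Smyd1 left out 0. The intervals are not adjusted for the number of events.

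**Figure D2:**
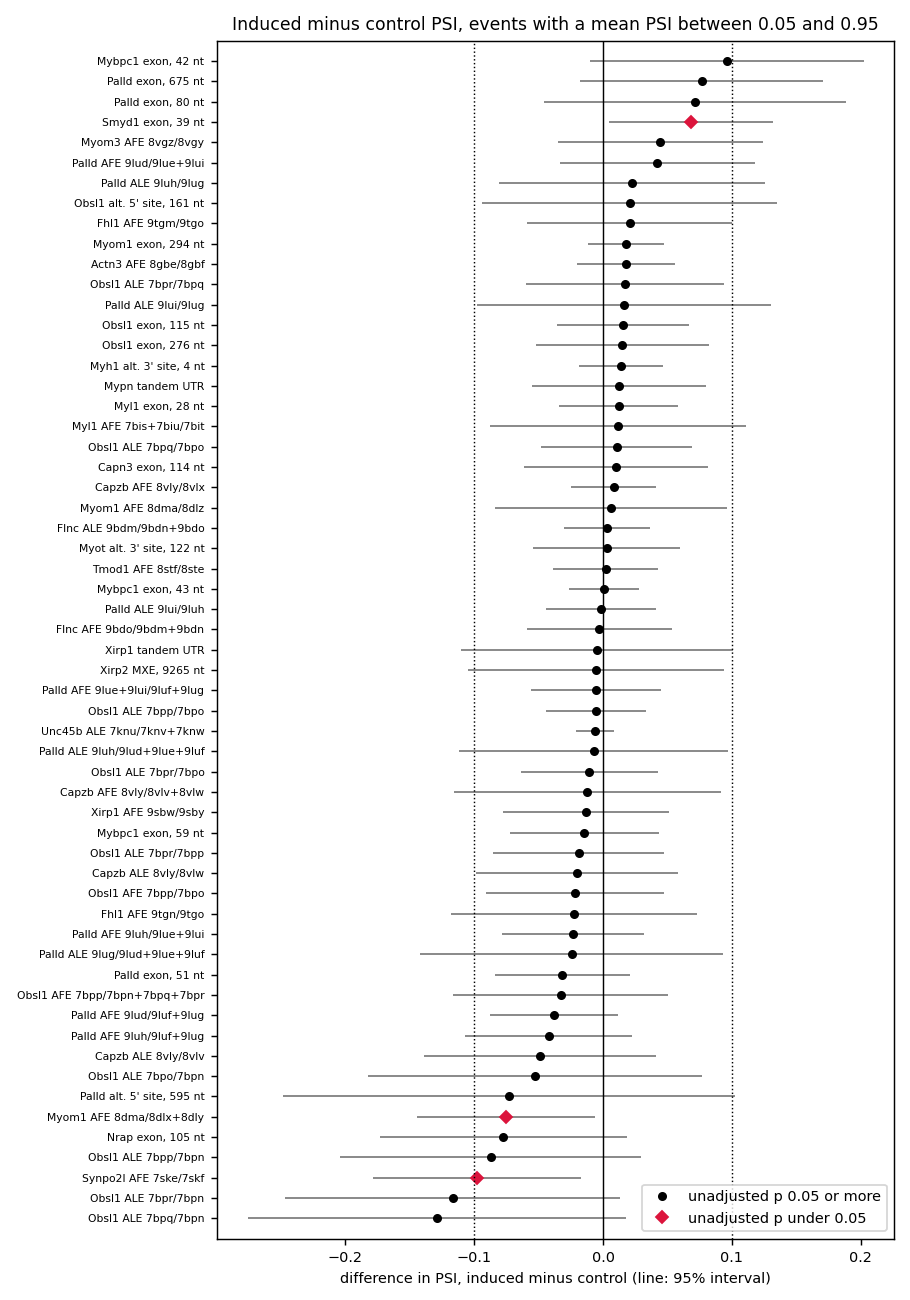
Difference in PSI, induced minus control, with its 95% interval from limma, for the 58 member events with a mean PSI between 0.05 and 0.95; dotted lines mark a difference of 0.1 and diamonds an unadjusted p under 0.05. The 3 diamonds are the first exons of Synpo2l and Myom1, to the left of 0, and the 39-base exon of Smyd1, to the right.

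The thick filament and M-band are represented by 10 genes and 34 events, of which 33 were tested, 0 were called and 2 had an unadjusted p under 0.05. Both of these lie in proteins that brace the myosin filament. Myom1 encodes myomesin 1, which links myosin filaments at the M-band. Its first-exon event uc008dma against uc008dlx and uc008dly had a PSI of 0.45, 0.49 and 0.58 (lowest, median and highest) in the 6 induced libraries and of 0.53, 0.56 and 0.65 in the 9 controls. The groups overlapped: 4 induced libraries lay below every control, and week 6 induced 2 and week 20 induced 1 lay within the control range. The means were 0.502 ± 0.050 (SD, n = 6) and 0.577 ± 0.045 (SD, n = 9), a difference of -0.075 (95% interval -0.144 to -0.00604, limma adjusted p = 0.775). An exact permutation test over the libraries, two-sided and not adjusted, gave p = 0.0134. The other first-exon event of Myom1, uc008dma against uc008dlz, had means of 0.512 in induced and 0.506 in control libraries. A skipped exon of Myom1 with 98 codons (chr17:71082203-71082496, mm10) was little used, with PSI between 0.00 and 0.14. Myomesin 1 is known in an EH form, common in embryonic heart, which carries an extra elastic segment, and whether this exon encodes that segment was not checked. At week 12 its PSI was 0.09 and 0.14 in the induced libraries and 0.03, 0.03 and 0.06 in the controls, a difference of 0.0667 (limma adjusted p = 0.707). At weeks 6 and 20 the fitted differences were -0.0125 and -0.000833, and over all weeks 0.0178 (limma adjusted p = 0.905). The sign was opposite in the muscles taken alone, 0.0456 in gastrocnemius and -0.0283 in quadriceps. This exon was singled out after its values were seen.

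Mybpc1 encodes slow skeletal myosin-binding protein C, which is known to be made in many spliced forms. All 4 of its events are skipped exons on chromosome 10. The exon of 54 bases (chr10:88537466-88537519, 18 codons) was nearly always skipped, with PSI between 0.01 and 0.03 in induced and between 0.00 and 0.02 in control libraries. Its difference of 0.00778 had an unadjusted p of 0.0149 but an adjusted p of 0.670 from limma, and is smaller than the 0.01 step in which the fractions are printed. The exon of 42 bases (chr10:88582007-88582048, 14 codons) was mostly included. Its PSI was 0.67, 0.75 and 0.89 (lowest, median and highest) in induced libraries and 0.45, 0.67 and 0.79 in controls. Only week 12 induced 2 lay above every control, and the means of 0.748 ± 0.081 (SD, n = 6) and 0.652 ± 0.106 (SD, n = 9) differed by 0.0961 (95% interval -0.00988 to 0.202, limma adjusted p = 0.833). The exon of 59 bases had PSI between 0.03 and 0.24 and the exon of 43 bases between 0.91 and 0.99.

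Among the myosin genes, events of the fast heavy chains Myh1, Myh2 and Myh4 varied by 0.08 or less over the libraries. Myh7 encodes the slow heavy chain of type I fibres. Its first-exon event was at 0.02 or 0.03 in 13 of the 15 libraries, at 0.10 in week 6 induced 2 and at 0.34 in week 20 induced 2. Both of the high libraries are quadriceps, while the 3 quadriceps control libraries read 0.02, 0.02 and 0.03. The last-exon event of the same transcripts was at 0.55 in week 6 induced 2, had no value in week 20 induced 2 and lay at 0.01 or 0.02 in the other 13. The first-exon difference over all libraries was 0.0661 (95% interval -0.00622 to 0.138, limma adjusted p = 0.828). Without week 20 induced 1 the difference was 0.116 and passed the call rule. That fit left the library at 0.34 as the only induced library of week 20, so the call rests largely on an unreplicated library. Without week 20 induced 2, the library at 0.34, the difference was 0.0161 and not called. In the gastrocnemius libraries alone the means did not differ, all values being 0.02 or 0.03. Myh7 lies beside Myh6, a near-identical paralog, so reads of these exons may be shared and the values are uncertain.

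Myl1 encodes the alkali light chains of fast myosin, 2 forms that are known to start at separate promoters. Its first-exon event lay at 0.44, 0.53 and 0.69 (lowest, median and highest) in induced and at 0.44, 0.53 and 0.60 in control libraries, with a difference of 0.0117 (95% interval -0.0874 to 0.111, limma adjusted p = 1.00). Its skipped exon of 28 bases was steadier, between 0.32 and 0.39. Myom3, a myomesin of the M-band, had a first-exon PSI of 0.44, 0.52 and 0.57 in induced and 0.37, 0.47 and 0.61 in control libraries (limma adjusted p = 0.912).

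Obsl1 encodes obscurin-like 1, a cytoskeletal adaptor that binds titin and myomesin at the M-band, and it was the most variable of the 30 genes. Its 9 last-exon events compare 5 UCSC transcripts pair by pair, and the 4 that compare a transcript with uc007bpn spanned 0.53 to 0.59 each over the libraries. For uc007bpq against uc007bpn, PSI was 0.46, 0.69 and 0.63 in the week 6 controls and 0.17 and 0.42 in the induced libraries of that week. At week 12 the same event read 0.71, 0.67 and 0.59 in controls and 0.30 and 0.29 in induced libraries. At week 20 it read 0.16, 0.12 and 0.25 in controls and 0.22 and 0.68 in induced libraries. Of these, the induced value of 0.22 lay within the control range and only that of 0.68 lay above it. The induced libraries were thus below every control of their week at weeks 6 and 12 but not at week 20. Over all weeks the means were 0.347 ± 0.184 (SD, n = 6) and 0.476 ± 0.238 (SD, n = 9), a difference of -0.129 (95% interval -0.276 to 0.0177, limma adjusted p = 0.839). Its difference at weeks 6, 12 and 20 was -0.362, -0.320 and 0.294, with limma unadjusted p-values of 0.0136, 0.0213 and 0.0281 and adjusted p-values of 1.00, 0.737 and 0.977.

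For uc007bpp against uc007bpn, which shares a transcript with the first event, the week 6 induced libraries read 0.26 and 0.48, those of week 12 read 0.31 and 0.36, and those of week 20 read 0.33 and 0.63. They lay below every control of their week only at week 12, overlapped the controls at week 6 and lay above all of them at week 20. Here the weekly differences were -0.256, -0.293 and 0.288, and the test that the difference varies between weeks gave F = 12.7 (limma unadjusted p = 0.00179, adjusted p = 0.992). Over all weeks the difference was -0.0872 for uc007bpp, -0.117 for uc007bpr and -0.0528 for uc007bpo, each against uc007bpn, with limma adjusted p-values of 0.880, 0.835 and 0.951. All 5 member events with an unadjusted p under 0.05 in that test (5.05% of 99, against 4.14% of all events) are Obsl1 last exons, and 0 of 99 were called where 0.0032% of all events were. In the 5 Obsl1 last-exon events without uc007bpn, PSI spanned less; uc007bpp against uc007bpo, for instance, lay between 0.23 and 0.28 in all 15 libraries. In gastrocnemius alone the difference of uc007bpq against uc007bpn was -0.306, which did not pass the call rule, and in quadriceps alone it was 0.233. The quadriceps fit had no term for week. Its 2 induced libraries are of weeks 6 and 20 and its controls of weeks 12 and 20, so arm and age cannot be told apart in it. The induced week 20 library with the PSI of 0.68 is one of the quadriceps libraries.

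**Figure D3:**
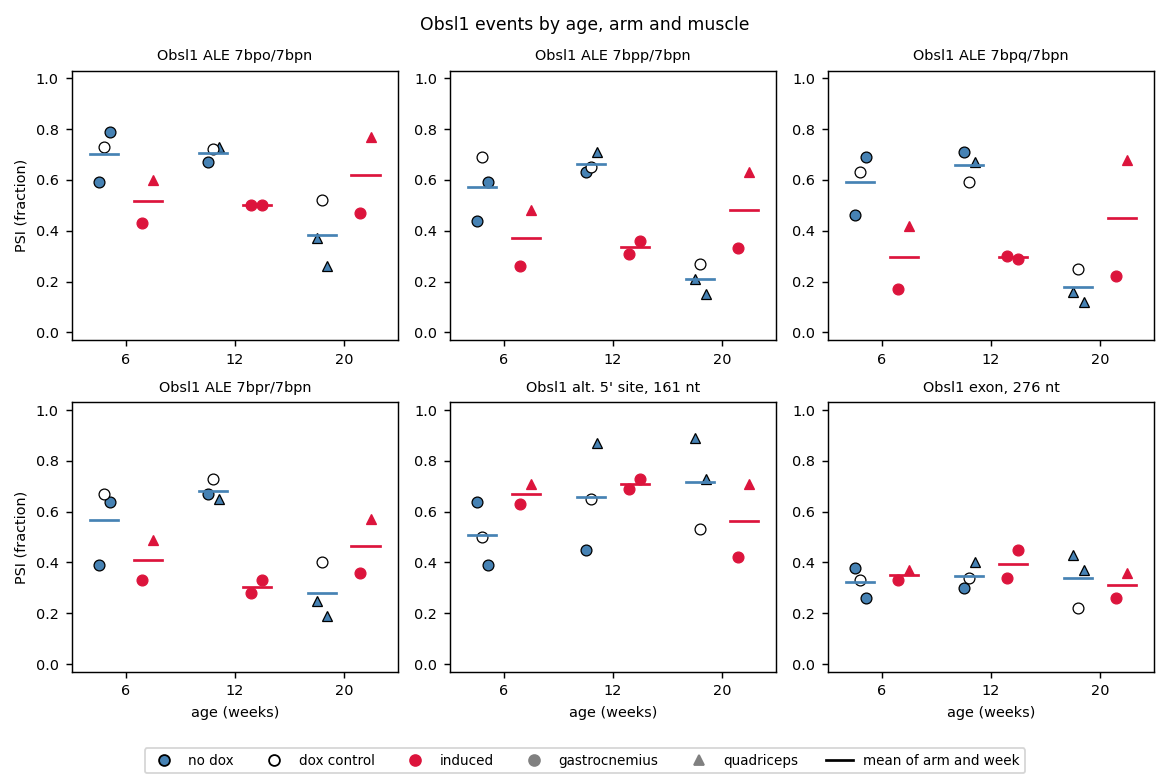
PSI of 6 Obsl1 events in each library by age (6, 12 and 20 weeks): the 4 last-exon events that share uc007bpn, the 5′ splice site and the 276-base exon. Colour marks no dox, dox control and induced, marker shape the muscle, and bars the mean of an arm and week; transcript names lack their leading uc00. For uc007bpq against uc007bpn, controls sit between 0.46 and 0.71 at weeks 6 and 12 and between 0.12 and 0.25 at week 20, while induced libraries run from 0.17 to 0.42 at weeks 6 and 12.

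Thin-filament genes comprise 4 genes with 13 events, of which 12 were tested, 0 were called and 0 had an unadjusted p under 0.05. The median absolute difference was 0.0028. Capzb encodes the beta subunit of the protein that caps actin filaments at the Z-disc, and its first-exon event uc008vly against uc008vlv and uc008vlw lay at 0.36, 0.485 and 0.68 (lowest, median and highest) in induced and 0.42, 0.52 and 0.60 in control libraries. The difference was -0.0122 (95% interval -0.116 to 0.0913, limma adjusted p = 1.00). Its 144-base exon was at 0.00 in every library. Tmod1 encodes tropomodulin 1, which caps the other end of the thin filament. The Tmod1 first-exon event lay between 0.29 and 0.34 in all 15 libraries, with a difference of 0.00222 (95% interval -0.0385 to 0.0430).

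The Z-disc and its actin cross-linkers hold 12 genes and 42 events, all tested, with 0 called and 1 with an unadjusted p under 0.05, the first exon of Synpo2l whose promoters are printed above. Its PSI was 0.53, 0.665 and 0.76 (lowest, median and highest) in induced libraries and 0.67, 0.75 and 0.86 in controls. The lowest values, 0.53, 0.63 and 0.64, are all induced and lie below every control, while the other 3 induced libraries fall within the control range. The means were 0.660 ± 0.080 (SD, n = 6) and 0.758 ± 0.062 (SD, n = 9), a difference of -0.0978 (95% interval -0.179 to -0.0169, limma adjusted p = 0.717). The two-sided exact permutation test gave p = 0.0172, not adjusted. Leaving out week 6 induced 1 gave -0.139 and leaving out week 6 induced 2 gave -0.0564, the ends of the range over the 15 libraries. In gastrocnemius alone the difference was -0.0556 and in quadriceps alone -0.175, with limma unadjusted p-values of 0.108 and 0.0934. Against the no-dox libraries the difference was -0.106 (limma adjusted p = 0.780).

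Palld encodes palladin, an actin-bundling scaffold bound by alpha-actinin, and 3 of its events use the same stretch of chromosome 8. The skipped exon of 675 bases (chr8:61549571-61550245, 225 codons) contains the 80-base exon (chr8:61550166-61550245), and the 5′ splice site event sets the long against the short form, 595 bases apart. The 675-base exon had PSI of 0.46, 0.545 and 0.80 (lowest, median and highest) in induced and 0.43, 0.52 and 0.61 in control libraries. Only week 6 induced 2 and week 20 induced 2, at 0.80 and 0.71, lay above every control, and both are quadriceps. The difference was 0.0767 over all libraries (95% interval -0.0176 to 0.171, limma adjusted p = 0.859), 0.00556 in gastrocnemius alone and 0.182 in quadriceps alone. It was 0.0315 without week 6 induced 2 and 0.122 without week 6 induced 1, the ends of the range when 1 library was left out. For the 80-base exon the difference was 0.0711 and for the splice site -0.0728, with limma adjusted p-values of 0.905 and 0.949. A 51-base Palld exon (chr8:61534858-61534908, 17 codons) was included at 0.78 to 0.93 in every library.

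Nrap encodes nebulin-related anchoring protein, which takes part in myofibril assembly and is found where filaments join the membrane. Its 105-base exon (chr19:56374364-56374468, 35 codons) was included at 0.49, 0.635 and 0.77 (lowest, median and highest) in induced and at 0.61, 0.70 and 0.87 in control libraries. Only week 12 induced 2, at 0.49, lay below every control. The difference was -0.0772 (95% interval -0.173 to 0.0187, limma adjusted p = 0.861), with -0.146 in gastrocnemius alone and 0.0133 in quadriceps alone. Its 3 other skipped exons were included at 0.96 or more in every library.

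The remaining Z-disc genes differed by less. Xirp2 encodes a Xin repeat protein whose giant exon of 9265 bases (chr2:67507909-67517173) was included at 0.97 to 1.00 when scored as a skipped exon and lay at 0.34 to 0.57 when scored as one of a mutually exclusive pair, so overlapping event models gave the same exon different values. The latter had a difference of -0.00556 (95% interval -0.105 to 0.0937). Fhl1, a LIM-domain protein, had 2 first-exon events between 0.52 and 0.82, and Flnc, filamin C, had a first-exon event between 0.65 and 0.77. Actn3 encodes alpha-actinin-3 of fast fibres, and its first-exon event lay between 0.74 and 0.83. The 3′ splice site of Myot, myotilin, lay between 0.51 and 0.64. Mypn, myopalladin, had a tandem untranslated region event between 0.30 and 0.54 and that of Xirp1 lay between 0.63 and 0.95, the latter highest in a no-dox library. Both events were assigned by symbol. Their coordinates do not lie at these genes in the reference used, so whether they belong to them is uncertain.

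Protein turnover and folding genes comprise 4 genes with 12 events, all tested, with 0 called and 2 with an unadjusted p under 0.05. Smyd1 encodes a muscle lysine methyltransferase that helps myosin assemble, and is known in isoforms that differ by an insert of this kind. Its 39-base exon (chr6:71235343-71235381, 13 codons) was included at 0.38, 0.49 and 0.57 (lowest, median and highest) in induced and 0.37, 0.42 and 0.49 in control libraries. The values above every control, 0.52, 0.56 and 0.57, are all induced, and the lowest induced value of 0.38 lies within the control range. The means were 0.492 ± 0.072 (SD, n = 6) and 0.423 ± 0.038 (SD, n = 9), a difference of 0.0683 (95% interval 0.00464 to 0.132, limma adjusted p = 0.785). The two-sided exact permutation test gave p = 0.0340, not adjusted. By week it was 0.0504, 0.146 and 0.00821 at 6, 12 and 20 weeks, with limma adjusted p-values of 1.00, 0.698 and 1.00. Leaving out 1 library at a time gave 0.0452, without week 20 induced 1, to 0.0915, without week 20 induced 2.

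Capn3 encodes calpain 3, a muscle protease that binds titin. Its first-exon event was near 1, at 0.96 to 0.99 in induced and 0.98 to 1.00 in control libraries, and the difference of -0.010 had an unadjusted p of 0.0121 and an adjusted p of 0.657 from limma. The exon of 114 bases (chr2:120501211-120501324, 38 codons) was included at 0.46, 0.51 and 0.64 (lowest, median and highest) in induced and 0.43, 0.53 and 0.59 in control libraries, a difference of 0.010 (95% interval -0.0615 to 0.0815). Trim63, the ubiquitin ligase MuRF1, and Unc45b, a myosin chaperone, each had events between 0.91 and 0.99 or at 0.03 and below. Across the 4 roles, the 5 events that reached an unadjusted p under 0.05 differed by less than 0.1 in PSI.

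**Figure D4:**
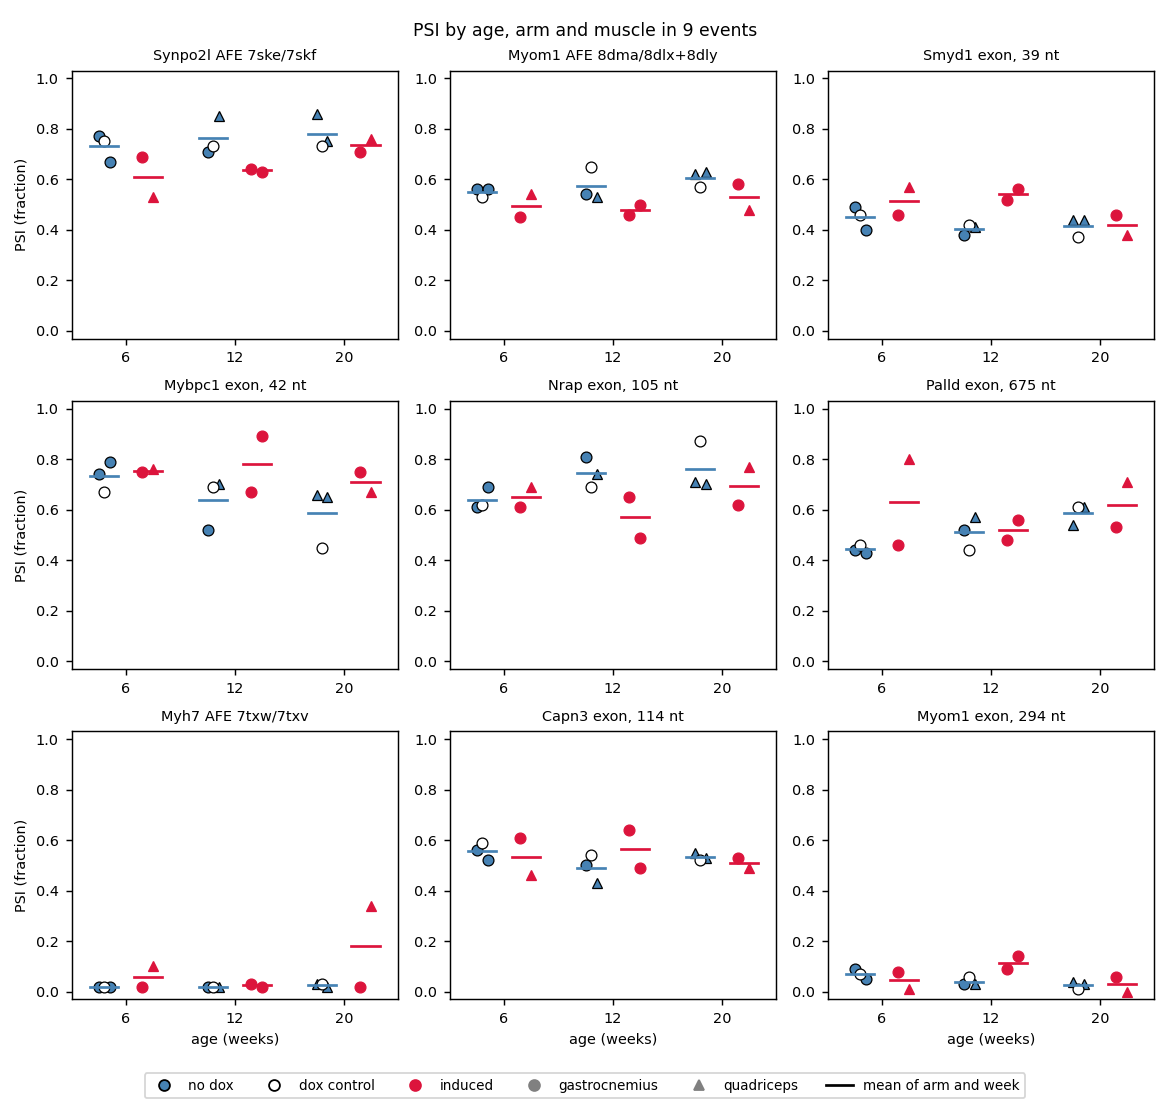
PSI of 9 member events in each library by age (6, 12 and 20 weeks), with colour for no dox, dox control and induced, marker shape for the muscle and bars for the mean of an arm and week. Synpo2l ranges from 0.53 to 0.86 and Smyd1 from 0.37 to 0.57, and in both the arms overlap.

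By week, 4 member events had an unadjusted p under 0.05 at week 6 (4.04%, against 4.17% of all events), 7 at week 12 (7.07%, against 6.04%) and 5 at week 20 (5.05%, against 5.01%). None was called at any week, where 0.0032%, 0% and 0.0032% of all events were. The 7 at week 12 were the exons of Smyd1, Nrap and Myom1 and the 54-base exon of Mybpc1, each named above, and 3 Obsl1 last exons. The lowest limma adjusted p of a member at any week was 0.551, at week 12.

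Quadriceps differed from gastrocnemius with an unadjusted p under 0.05 in 8 member events (8.08%, against 7.54% of all), and 0 were called where 0.0032% of all events were. The largest was at the 5′ splice site of Obsl1, whose 161 bases lie in the skipped exon of 276 bases (chr1:75492067-75492342, 92 codons). Its PSI averaged 0.782 ± 0.090 (SD, n = 5) in quadriceps and 0.563 ± 0.120 (SD, n = 10) in gastrocnemius. Quadriceps values ran from 0.71 to 0.89 and gastrocnemius values from 0.39 to 0.73, overlapping between 0.71 and 0.73. The fitted difference was 0.251 (95% interval 0.109 to 0.393, limma adjusted p = 0.559). For the 276-base exon it was 0.104, for the 675-base exon of Palld 0.127 and for the 59-base exon of Mybpc1 0.0786, with limma adjusted p-values of 0.620, 0.649 and 0.639. The Obsl1 last exons uc007bpp and uc007bpq against uc007bpn had fitted differences of 0.106 and 0.126, with limma adjusted p-values of 0.761 and 0.772. Their observed means, which take no account of week and arm, ran the other way. They were 0.436 and 0.410 in quadriceps and 0.453 and 0.431 in gastrocnemius.

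In controls, week 20 against week 6 gave 6 member events with an unadjusted p under 0.05 (6.06%, against 5.32% of all), 0 called where 0% of all events were, and 5 of them Obsl1 last exons. For uc007bpp against uc007bpn, week 6 controls read 0.44, 0.59 and 0.69, and those of week 20 read 0.21, 0.15 and 0.27 without overlap, a difference of -0.434 (95% interval -0.639 to -0.229, limma adjusted p = 0.658). Of the week 20 controls 2 are quadriceps and 1 is gastrocnemius, and all 3 of week 6 are gastrocnemius, so the part of muscle in this difference was not tested apart from the muscle term of the fit. The Mybpc1 exon of 42 bases differed by -0.194 and the Nrap exon of 105 bases by 0.121, with limma adjusted p-values of 0.939 and 0.997. In the comparison of dox control with no-dox libraries, 1 member event had an unadjusted p under 0.05 (1.01%, against 3.58% of all), and 0 were called where 0% of all events were. It was the 51-base exon of Palld, with a difference of 0.0809 (95% interval 0.0285 to 0.133, limma adjusted p = 1.00). Differences of 0.1 or more with larger p-values were seen in 5 events, 3 Obsl1 last exons and 2 Palld events, the largest of 0.176 for uc007bpr against uc007bpn. The same 51-base Palld exon was the 1 member event with an unadjusted p under 0.05 for induced against dox control (1.01%, against 4.38% of all, 0 called against 0%), a difference of -0.0856. The comparison of induced with no-dox libraries, which shares the induced samples with the others, gave 4 such events (4.04%, against 6.02% of all, 0 called against 0%). They lie in Synpo2l, Capn3, Palld and Nrap, and the largest difference was -0.106, for Synpo2l.

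Other sarcomere genes, a list of 54 that holds titin, nebulin, troponin T, tropomyosins and the PDZ-LIM proteins, had events for 37. Of their 234 tested events, 0 were called and 29 (12.4%) had an unadjusted p under 0.05 for induced against controls, beside 5.05% of the member events and 6.26% of all events. The difference between the lists was not tested. Events of 13 genes that mark other cell types of muscle gave 2 of 34 with an unadjusted p under 0.05 and 0 called.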

How the data were processed

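Per the labels' protocols, poly-A RNA of gastrocnemius or quadriceps was read in pairs of 100 bases. The deposited PSI is a fraction from 0 to 1 with 2 decimals. TopHat and the build mm10 come from the submitters' processing notes, and MISO from the table's own name; neither a version nor a transcript annotation nor a read minimum is stated. Without counts, depth is unknown and no interval that needs it is given. PSI is read as inclusion of a skipped exon and as retention of an intron. Which form it counts in other event types is not stated.

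Columns were matched to libraries by title. The pair of week 6 induced libraries is numbered oppositely in column names and titles, and the titles were followed. There were 0 columns of other samples. Events named by coordinates were assigned by gene symbol, and first and last exons by the gene ID in the event name. Coordinates (mm10) were taken from event names. Most tandem untranslated region events, those of Mypn and Xirp1 included, do not lie at their gene in the reference used, so they are given by symbol only.

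PSI was fitted with limma 3.58.1 (variance trend, robust) in R 4.3.3 on 31267 events with a value in all 15 libraries, with a mean for each week and arm plus muscle. The no-dox and dox-control comparisons used condition, week and muscle. The fit of gastrocnemius alone kept a term for week, and that of quadriceps alone had a term for arm only. Benjamini-Hochberg adjustment ran over all events. Intervals are 95%. No label ties a library to an animal, so p-values reflect only the spread among libraries, which may be technical. On simulated data for induced against controls (31267 events), 27% of differences of 0.2 and 74% of differences of 0.4 were recovered, with 1 false call. The differences were added only to events with a mid-range mean PSI, with independent normal noise. The rates therefore do not cover events near 0 or 1.

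The member genes, the lists and the roles were chosen with earlier results of these data known. Events named in the text were any called, for induced against controls up to 12 per direction by p with a difference of at least 0.05, up to 6 per direction with at least 0.1 for muscle, age and control type, 5 for the week interaction, and the 10 with the widest range, plus the range of each gene. Alternatives were another scale, other filters and variance models, no muscle term, library weights, no minimum difference, each muscle alone, an exact permutation test, a replicate block, no-dox controls alone, assignment by symbol, and leaving out each library.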

Additional observations from a re-analysis of the deposited data

Results flagged for a closer look

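Single libraries stood far from the rest of their arm in 2 of 40 groups of libraries looked at. Chance gives such a flag in about 1 of 20 groups when events are not chosen by their values. Both flagged events had been named for their difference or range, so that rate may not apply to them. The Myh7 first-exon event of week 20 induced 2 had a PSI of 0.34, where the nearest other induced library had 0.10 and the lowest 0.02. The Obsl1 5′ splice site event of week 20 induced 1 had a PSI of 0.42, where the nearest other induced library had 0.63 and the highest 0.73. Week 20 induced 2 is a quadriceps library and week 20 induced 1 a gastrocnemius library, and the part of muscle in either value was not tested.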

How the results depend on the processing

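No member event was called in any of the 10 comparisons, and this held under every alternative run except 1. Without week 20 induced replicate 1, the first exon of Myh7 was called, with a difference of 0.116 over all weeks. It was called for induced against controls, at week 20 and in the test of variation between weeks. That fit left the library at 0.34 as the only induced library of week 20, so these calls rest largely on an unreplicated library. Leaving out 1 library at a time thus gave counts from 0 to 1 in these comparisons and 0 in the others. Directions reversed in 10 values for events that were not called. The fit of quadriceps alone had no term for week, so age is mixed into its differences. In quadriceps alone the difference was 0.0133 for the 105-base exon of Nrap, -0.120 for the 5′ splice site of Obsl1, 0.0367 for that of Palld, and 0.232, 0.198, 0.233 and 0.167 for the Obsl1 last exons uc007bpo, uc007bpp, uc007bpq and uc007bpr against uc007bpn. Leaving out 1 library at a time, the Obsl1 5′ splice site difference ran from -0.0157 to 0.0568 and was below 0 without week 6 induced replicate 1 or week 12 no dox replicate 1. For uc007bpo against uc007bpn it was 0.00611 with no-dox libraries alone as controls. The cause was not tested. Of 939 recomputed values for named events, 928 kept their direction and side of the threshold, 10 reversed and 1 passed it. With the replicate block on induced and no-dox libraries, 0 member events were called, 2 had an unadjusted p under 0.05 and the lowest adjusted p was 0.849. The correlations of same-numbered deviations over all events were 0.0096, -0.0118 and 0.0154 at weeks 6, 12 and 20, and showed no pairing by number. They cannot exclude a pairing, because depth is unknown and some same-numbered libraries differ in muscle. Over the whole table, 2 events were called for induced against controls, 9 on the logit scale, 0 without the muscle term or in either muscle alone, and 40 and 17 without week 6 induced replicate 1 and week 12 induced replicate 2; other settings gave 0 to 5. Unknown depth limits all of these values.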

Other observations

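The 84-base intron of Capn3 (chr2:120502445-120502528, mm10) had a retention PSI of 0.26 in week 20 no dox 2 and 0.10 in week 6 induced 2, and between 0.01 and 0.04 in the other 13 libraries. It was singled out after its values were seen. Both libraries are quadriceps, and the other 3 quadriceps libraries read 0.02, 0.03 and 0.03.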
